A study of Mus musculus with 172 samples.

Results

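The genes described here are 39 members of the p53 pathway and of the apoptotic machinery, chosen by symbol out of the 49671 genes in the count files. They comprise p53 itself (Trp53) with its regulators Mdm2 and Mdm4, 15 targets that act in cell cycle arrest, repair and stress, 4 genes of the death receptor arm, 2 pore-forming effectors, 7 BH3-only genes, 3 pro-survival BCL2 family genes and 5 genes of the apoptosome and its inhibitors. Single cells of the mouse inner cell mass (ICM) were profiled by Smart-seq2 from embryos of Oct4+/- inter se natural matings on a mixed background, at embryonic day (E) 3.5 and E4.5. At E3.5 there were 29 cells from 4 OCT4 null embryos (MUT), 42 cells from 5 wild-type embryos (WT) and 16 cells from 2 heterozygous embryos (HET). At E4.5 there were 19 cells from 2 MUT embryos, and 66 cells from 6 WT or HET embryos that the authors divided, from these transcriptomes, into 37 epiblast (EPI) and 29 primitive endoderm (PrE) cells. WT and HET embryos were joined as controls, trophectoderm (TE) was removed by immunosurgery, and inadequate cells had already been left out by the authors. Cells lost before collection, or removed at that step, are not represented. Each embryo is 1 replicate, and nothing in the labels ties embryos to litters.

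The transcription factor p53 is held low by MDM2, which marks it for degradation, and by MDM4. When stabilised it raises genes that arrest the cycle, such as Cdkn1a, and genes that start apoptosis, such as the BH3-only genes Bbc3 (PUMA) and Pmaip1 (NOXA). BH3-only proteins block pro-survival BCL2 proteins and so free BAX and BAK to open the outer mitochondrial membrane, after which cytochrome c, APAF1 and caspase-9 form the apoptosome. In the blastocyst ICM some cells are removed by apoptosis in normal development. RNA levels do not report p53 stability or caspase cleavage, and the question put to these data was whether MUT cells showed an altered transcript profile with or without a rise of the death genes.

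The cells of each embryo were added up, separately for EPI and PrE. Levels are given as CPM, the counts of a sum scaled to its effective library size on a common scale over 25 sums, and fold changes come from an edgeR fit of each comparison, with p-values adjusted over all genes tested. In a sum, fewer cells with a transcript and less transcript per cell cannot be told apart. Cells had 363819 to 4644070 counts assigned to genes, with a median of 1488917. Stage and plate coincided, so levels at E3.5 and E4.5 are set side by side only. Pou5f1, which encodes OCT4, had 2.74 to 5.93 CPM in E3.5 MUT embryos against 199 to 435 CPM in E3.5 controls, and 0 CPM in both E4.5 MUT embryos against 70.3 to 242 CPM in EPI and 46.9 to 152 CPM in PrE. The labels therefore matched the targeted gene. The summed level of 14 TE markers was 1353 to 2375 CPM in E3.5 MUT embryos and 303 to 1075 CPM in E3.5 controls, with Gata2 at 0 in the MUT embryos. It was 8887 and 10294 CPM in the E4.5 MUT pair with none at 0. In EPI it was 175 to 450 CPM with Cdx2 and Elf5 at 0, and in PrE 896 to 1830 CPM with Elf5 and Dlx3 at 0. Fabp3 made up most of the PrE sum. It had a mean of 4200 CPM in E4.5 MUT and 990.1 CPM in PrE, where Gata3 had 224 CPM and 2.5 CPM. The part of these markers in the results below was not tested. Summed over 10 genes each, EPI markers had 2323 to 4070 CPM in EPI and 247 to 407 CPM in PrE. PrE markers had 37.7 to 95.7 CPM in EPI and 4697 to 8871 CPM in PrE. The E4.5 MUT pair had 499 and 1205 CPM of EPI markers and 609 and 964 CPM of PrE markers. At E3.5, EPI markers had 454 to 1061 CPM in MUT and 929 to 1776 CPM in controls. PrE markers had 391 to 609 CPM in E3.5 MUT, with Sox17 and Sox7 at 0, and 113 to 317 CPM in controls. Their part in the results below was not tested either.

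At E3.5 the members fell into a small set that moved and a majority that did not pass the test. Btg1, Gadd45b, Pmaip1 and Bcl2l1 were higher in MUT embryos and Trp53 and Gadd45a were lower. These were 6 of 32 members tested (18.8%), where 6.18% of all 12075 genes tested were called. The members were chosen with earlier results of these data known, so the shares here and below are not independent of them. The study itself had found Btg1 in most E3.5 MUT cells. By direction, 4 members were higher, beside 3.2% of all genes, and 2 were lower, beside 2.98%. The median log2 fold change was 0.20 over the members tested and -0.02 over all genes. The members that rose included both a pro-death gene, Pmaip1, and a pro-survival gene, Bcl2l1. The 26 members that were not called had log2 fold changes from -0.79 (Rrm2b) to 1.77 (Bmf). For 7 of them, Mdm4, Tigar, Aen, Bax, Bad, Cycs and Diablo, the approximate 95% interval lay within 1 log2 unit of 0. These intervals are somewhat too narrow for the number of embryos. That of Aen reached -0.999, so Aen is not securely bounded. A further 7 members had too few counts to be tested at this stage.

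At E4.5 few members were called against either lineage, with 2 MUT embryos to set against 6. Against EPI, Btg1 was higher and Trp53 and Cycs were lower, which made 3 of 36 members tested (8.33%) beside 4.92% of 12953 genes (2.3% higher and 2.62% lower). Against PrE, Aen and Cycs were lower, which made 2 of 36 members tested (5.56%) beside 3.81% of 12246 genes (1.74% higher and 2.07% lower). Both comparisons used the same 2 MUT embryos, so their values are given side by side only. The median log2 fold change over the members was 0.58 against EPI and 0.59 against PrE, where that over all genes was -0.03 and 0.05. No uncalled member had an interval that lay within 1 log2 unit of 0, in either comparison.

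**Figure D1:**
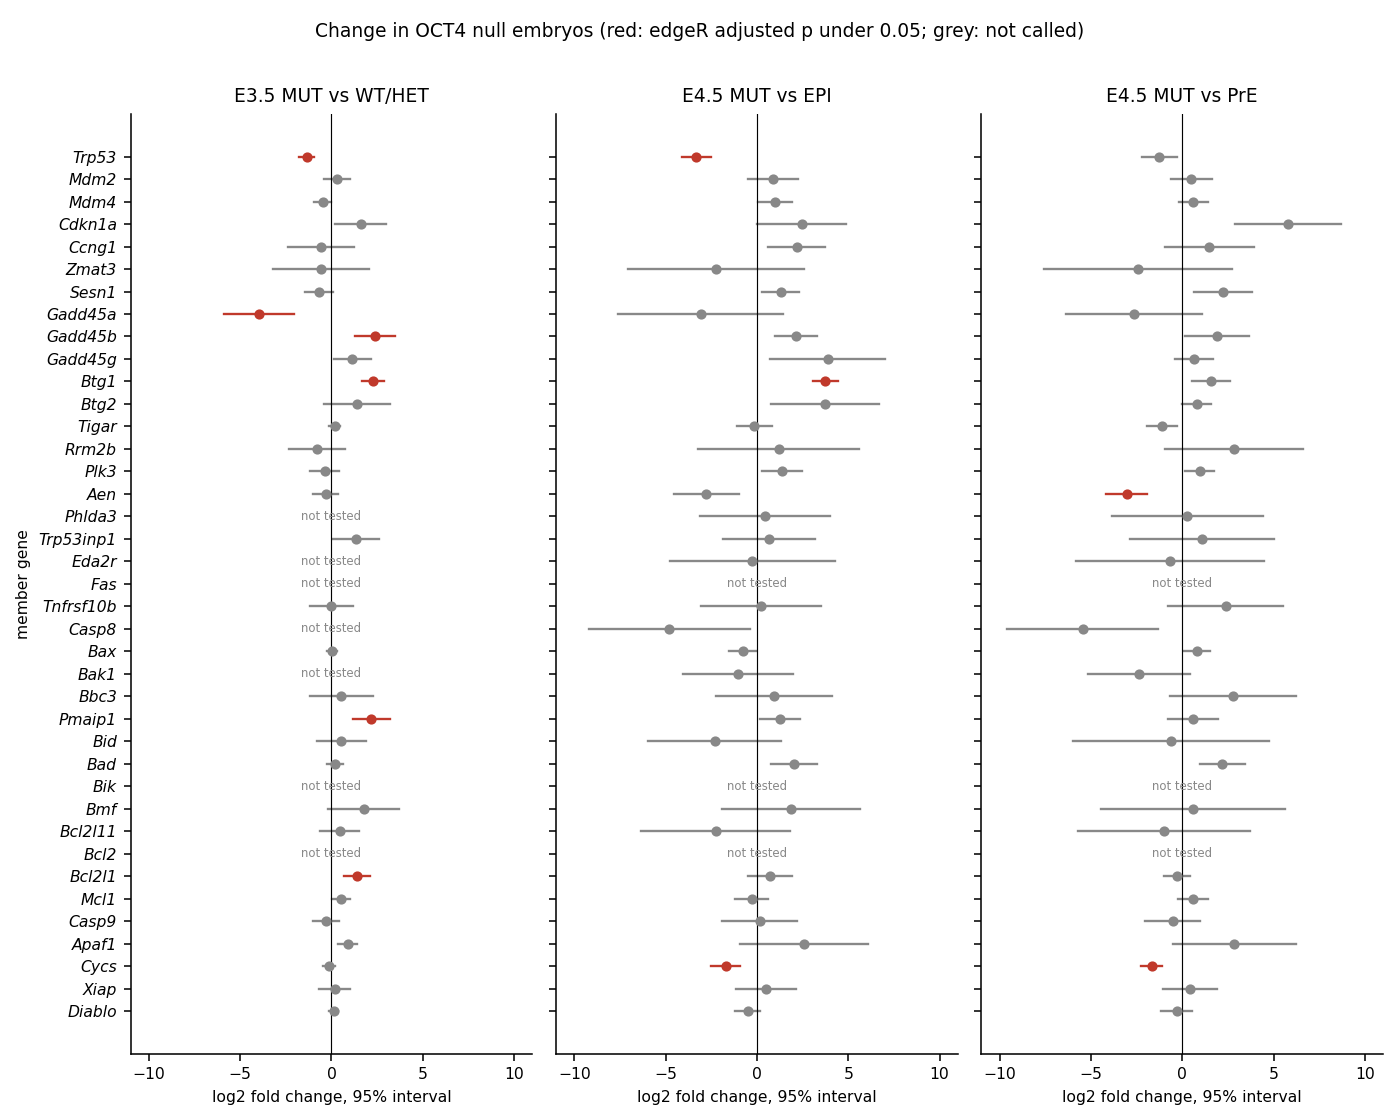
Log2 fold change of each member in MUT embryos (horizontal axis, with the approximate 95% interval) at E3.5 against WT/HET embryos and at E4.5 against EPI and against PrE. Red points passed an edgeR adjusted p of 0.05: 6 members at E3.5, 3 against EPI and 2 against PrE.

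Trp53 encodes p53 and lies on chromosome 11 from 69580359 to 69591873 (GRCm38, plus strand). Its level was 56.9, 51.9, 71.6 and 69.7 CPM in the 4 E3.5 MUT embryos (numbers 10, 12, 17 and 19) and 124 to 237 CPM (median 157) in the 7 E3.5 control embryos. All 4 MUT embryos lay below every control. The edgeR log2 fold change was -1.35 (SE 0.22, adjusted p = 0.00434, n = 4 and 7). At E4.5 Trp53 had 34.2 and 52.6 CPM in the 2 MUT embryos (numbers 3 and 8), 268 to 648 CPM (median 422) in EPI and 55.4 to 177 CPM (median 106) in PrE. Both MUT embryos were below all 6 EPI sums and all 6 PrE sums. The fall was called against EPI (log2 -3.32, SE 0.40, edgeR adjusted p = 0.00174) and not against PrE (log2 -1.27, SE 0.49, edgeR adjusted p = 0.218). EPI itself was above PrE by 2.01 on the log2 scale (edgeR adjusted p = 0.000346). A count was present in 12 of 19 E4.5 MUT cells, 37 of 37 EPI cells and 27 of 29 PrE cells.

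Mdm2, itself a p53 target, encodes the ligase that limits p53. It had 29.5, 40.5, 53 and 120 CPM in E3.5 MUT embryos and 27.4 to 70.2 CPM (median 46.5) in controls, and embryo 19 was above all of the controls while the other 3 lay among them. The E4.5 levels were 68.4 and 38.9 CPM in MUT, 6 to 55.7 CPM (median 24.5) in EPI and 22.3 to 70 CPM (median 31.2) in PrE, with overlap against both lineages. Mdm2 was not called in any of the 3 MUT comparisons, and its log2 fold changes were 0.31, 0.90 and 0.50. Mdm4, which binds p53 without degrading it, had log2 fold changes of -0.48 at E3.5, 1.00 against EPI and 0.61 against PrE, none called. Its approximate interval at E3.5 was -0.94 to -0.02, which is too narrow, since the unadjusted edgeR p was 0.0615. At E4.5 the MUT embryos had 98.0 and 73.6 CPM, both above the EPI sums of 22.9 to 69.9 CPM.

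**Figure D2:**
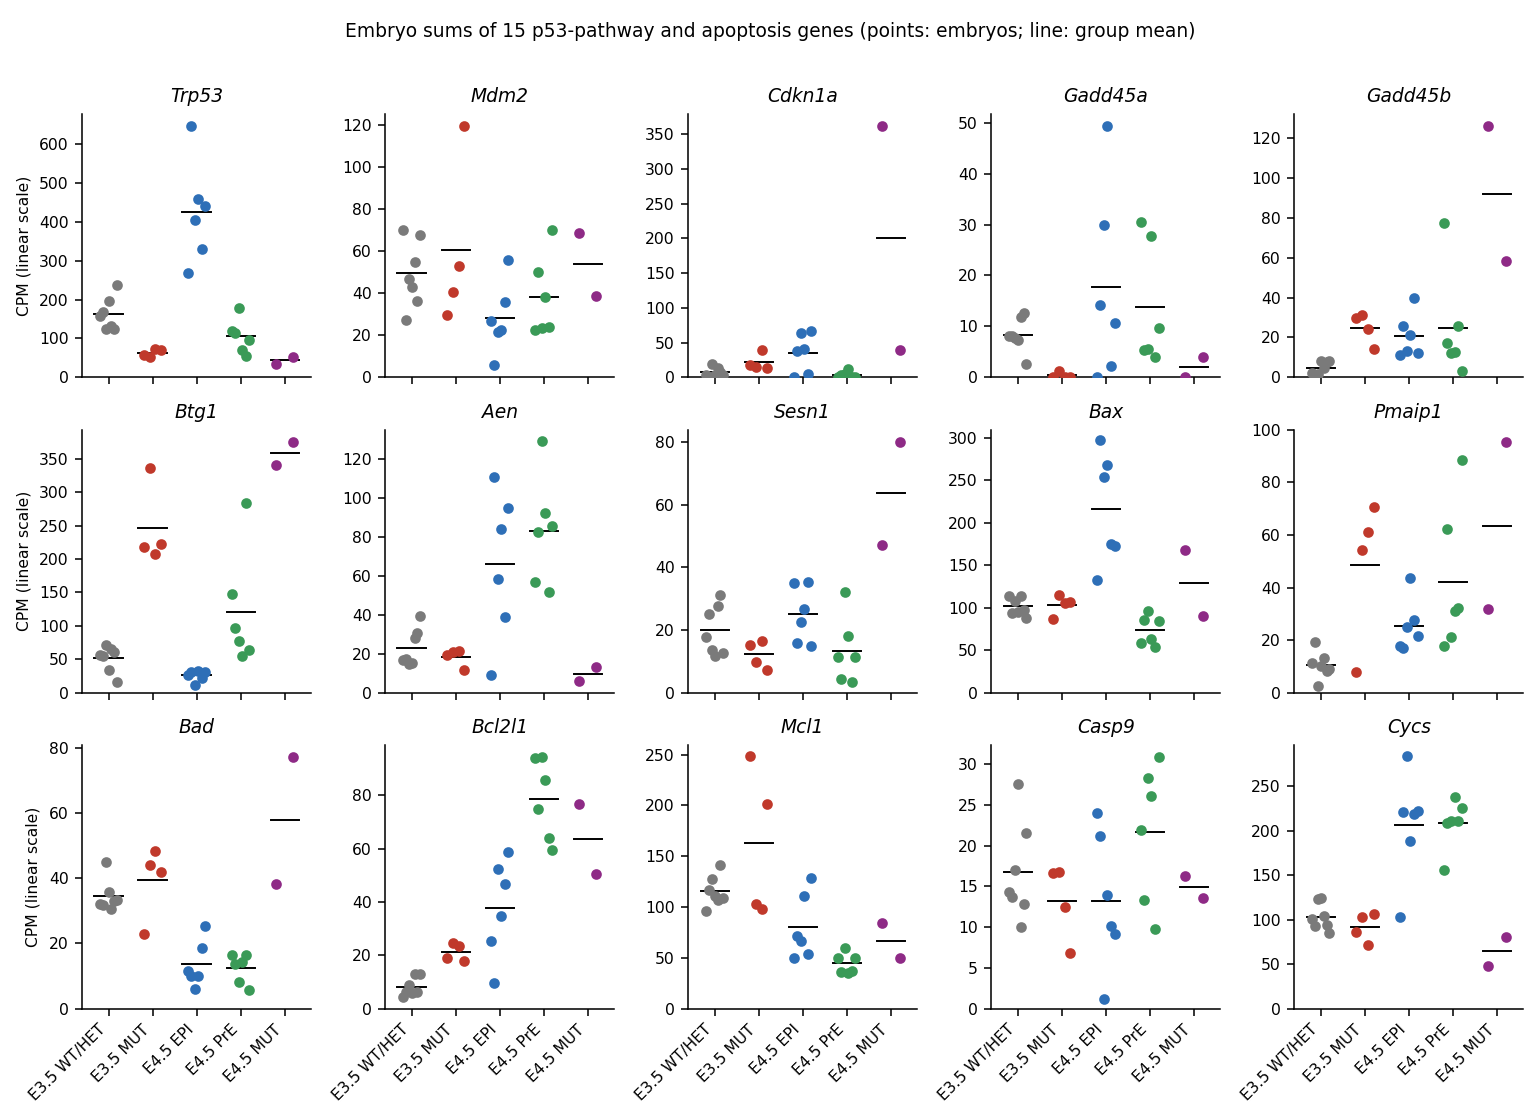
CPM on a linear scale (vertical axis) of 15 members in each embryo sum, with a point for each embryo and a line at the group mean, for E3.5 WT/HET (7), E3.5 MUT (4), E4.5 EPI (6), E4.5 PrE (6) and E4.5 MUT (2). Btg1 stands above the controls and Trp53 below them in every MUT embryo of E3.5, while Bax and Casp9 overlap; Cdkn1a is spread from 39.9 to 361 CPM between the E4.5 MUT embryos.

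The promoters of 4 members are shown because 3 of these genes changed in MUT embryos and Cdkn1a is the standard p53 target. Each is the 250 bases before a RefSeq start site on GRCm38.p6, read 5′ to 3′ on the strand of the gene, in lower case with motif matches in capitals. The motifs searched on both strands were ATGCAAAT (the octamer bound by OCT4 and other POU factors), TATAAA of the TATA box, the CCAAT box and the p53 half-site decamer. Trp53 (chr11:69580109-69580358, plus strand) held TATAAA far upstream in reverse, 1 half-site decamer at 75 to 66 bases before the start and CCAAT in reverse.
Trp53: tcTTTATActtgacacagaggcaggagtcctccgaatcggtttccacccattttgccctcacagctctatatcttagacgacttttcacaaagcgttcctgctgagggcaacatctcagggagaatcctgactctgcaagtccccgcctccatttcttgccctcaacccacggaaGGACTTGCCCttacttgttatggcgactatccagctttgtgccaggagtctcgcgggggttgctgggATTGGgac
Gadd45a (chr6:67037408-67037657, minus strand) held ATGCAAAT at 97 to 90 bases before the start in reverse and again at 70 to 63 bases in forward sense, with CCAAT between them and 1 half-site decamer at 40 to 31 bases.
Gadd45a: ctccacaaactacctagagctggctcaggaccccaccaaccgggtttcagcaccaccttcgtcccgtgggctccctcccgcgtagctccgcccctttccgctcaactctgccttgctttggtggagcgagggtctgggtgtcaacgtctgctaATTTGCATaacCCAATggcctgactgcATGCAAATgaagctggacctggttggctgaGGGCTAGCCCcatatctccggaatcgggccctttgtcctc
Btg1 (chr10:96616751-96617000, plus strand) held CCAAT in reverse at 80 to 76 bases and TATAAA at 26 to 21 bases before the start.
Btg1: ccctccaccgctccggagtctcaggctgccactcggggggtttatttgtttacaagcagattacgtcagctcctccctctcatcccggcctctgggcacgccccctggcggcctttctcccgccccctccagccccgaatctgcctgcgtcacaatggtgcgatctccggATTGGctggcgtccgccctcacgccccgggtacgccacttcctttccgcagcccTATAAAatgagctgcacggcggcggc
Cdkn1a (chr17:29090729-29090978, plus strand, the upstream of 2 start sites listed) held 2 half-site decamers, at 73 to 64 and 51 to 42 bases before the start.
Cdkn1a: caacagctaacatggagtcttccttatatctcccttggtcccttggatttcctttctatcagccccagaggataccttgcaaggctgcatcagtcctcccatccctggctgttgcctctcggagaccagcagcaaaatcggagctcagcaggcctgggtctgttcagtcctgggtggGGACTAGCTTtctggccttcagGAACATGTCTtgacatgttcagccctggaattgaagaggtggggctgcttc

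Of the 39 members, 33 had a promoter in the RefSeq table. The octamer was in 3 of the 33 (Gadd45a, Gadd45g and Eda2r), or 9.09%, and in 1.60% of the 32851 promoters of the same length. The half-site decamer was in 6 of them (18.2%; Trp53, Mdm2, Cdkn1a, Ccng1, Gadd45a and Bax) and in 7.13% of promoters. A pair of decamers 0 to 13 bases apart, the form of a full p53 site, was in the Cdkn1a promoter alone among the members and in 0.0639% of promoters. TATAAA was in 5 members (15.2%, against 12.4% of promoters) and CCAAT in 17 (51.5%, against 33.8%). Such matches describe letters in a window and do not show that a factor was bound.

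Gadd45a, a p53 target that links stress to growth arrest and repair, lies on chromosome 6 from 67035096 to 67037457. It had 0, 1.3, 0.0855 and 0 CPM in E3.5 MUT embryos and 2.68 to 12.6 CPM (median 8.1) in controls, so the groups did not overlap. Only 18 counts stood behind the MUT values, in 4 of 29 cells, where 43 of 58 control cells had a count. The edgeR log2 fold change was -3.98 (SE 0.98, adjusted p = 0.032). At E4.5 the MUT embryos had 0 and 4.03 CPM, all from 1 of 19 cells, while EPI had 0 to 49.3 CPM (median 12.4) and PrE 3.91 to 30.6 CPM (median 7.63). These overlapped and were not called (edgeR adjusted p = 0.531 and 0.565). The call at E3.5 was lost without any 1 of embryos 9, 10, 11, 13, 14, 15, 16, 17 and 19 (edgeR adjusted p up to 0.0760), with the log2 change between -4.01 and -3.72. The antisense gene E230016M11Rik covers 36.4% of Gadd45a, and reads of the pair cannot be told apart there.

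Gadd45b, the paralog on chromosome 10 (80930073 to 80932204), went the other way. It had 30, 31.5, 24.2 and 14.2 CPM in E3.5 MUT embryos and 0.843 to 8.04 CPM (median 4.86) in controls, with every MUT embryo above every control. Its edgeR log2 fold change was 2.36 (SE 0.56, adjusted p = 0.0278), and a count was present in 26 of 29 MUT and 30 of 58 control cells. The call was lost without embryo 10, 12, 15 or 17 (edgeR adjusted p = 0.0669, 0.0528, 0.0523 and 0.0586). At E4.5 the levels were 126 and 58.5 CPM in MUT, 11 to 39.8 CPM (median 17.1) in EPI and 3.16 to 77.6 CPM (median 15.1) in PrE. Both MUT embryos were above all EPI sums, but 1 PrE sum lay between them, and neither comparison was called (edgeR adjusted p = 0.0697 and 0.341). Gadd45g, the last of the 3 paralogs, was not called in any MUT comparison (log2 1.14, 3.89 and 0.65).

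Btg1 encodes an antiproliferative protein that recruits the CCR4-NOT deadenylase and lies on chromosome 10 from 96617006 to 96622809. Its level was 218, 336, 208 and 223 CPM in E3.5 MUT embryos and 16.6 to 71.8 CPM (median 57.2) in controls. The lowest MUT embryo was well above the highest control, and the edgeR log2 fold change was 2.26 (SE 0.31, adjusted p = 0.00231). At E4.5 it was 341 and 375 CPM in MUT, 11.2 to 32 CPM (median 29.2) in EPI and 54.9 to 284 CPM (median 86.8) in PrE, so that both MUT embryos exceeded all sums of either lineage. The difference was called against EPI (log2 3.75, SE 0.35, edgeR adjusted p = 0.000505) and not against PrE (log2 1.58, SE 0.54, edgeR adjusted p = 0.15). EPI was below PrE (log2 -2.20, edgeR adjusted p = 0.004). Every MUT cell had a Btg1 count, 29 of 29 at E3.5 and 19 of 19 at E4.5, where 56 of 58 E3.5 control, 28 of 37 EPI and 26 of 29 PrE cells had one. Btg1 was the member whose rise was called at both stages, at E4.5 against EPI. The study counts it with TE markers, and it is not among the 14 summed above. Its paralog Btg2 was at 105 and 88.8 CPM in E4.5 MUT, 0 to 24.9 CPM (median 4.32) in EPI and 31 to 75.2 CPM (median 57.9) in PrE, and was not called (edgeR adjusted p = 0.214 against EPI).

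Cdkn1a, which encodes the cycle inhibitor p21 and is a widely used readout of p53 activity, was uneven. E3.5 MUT embryos had 17.9, 15.3, 38.7 and 13.5 CPM and controls 0.46 to 19 CPM (median 3.41). The highest control lay within the MUT range and the other 6 below it, and the edgeR log2 fold change of 1.60 (SE 0.71, adjusted p = 0.216) was not called. At E4.5 the MUT embryos had 361 and 39.9 CPM, while EPI had 0 to 67 CPM (median 39.2) and PrE 0 to 12.1 CPM (median 1.55). Both MUT embryos were above all PrE sums, but embryo 8 fell inside the EPI range. A single MUT cell, at 1697 CPM, held 53.5% of all Cdkn1a counts of the 19. Neither difference was called, with log2 2.46 (edgeR adjusted p = 0.321) against EPI and log2 5.80 (edgeR adjusted p = 0.0657) against PrE. The share of cells with a count was 27 of 29 in E3.5 MUT, 37 of 58 in controls, 14 of 19 in E4.5 MUT, 19 of 37 in EPI and 6 of 29 in PrE.

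Aen, a p53-induced nuclease gene on chromosome 7 (78895854 to 78911209), was lower in E4.5 MUT embryos. It had 6.24 and 13.5 CPM there, 9.35 to 111 CPM (median 71.5) in EPI and 51.8 to 129 CPM (median 84.2) in PrE. Both MUT embryos were below all PrE sums, and 1 EPI sum lay between the MUT values. The fall was called against PrE (log2 -3.04, SE 0.57, edgeR adjusted p = 0.0185) and not against EPI (log2 -2.76, edgeR adjusted p = 0.115). Without MUT embryo 3 the call was lost (log2 -2.54, edgeR adjusted p = 0.175). An Aen count was found in 7 of 19 MUT cells, 35 of 37 EPI cells and 27 of 29 PrE cells. At E3.5 the levels were 19.2, 21.1, 21.5 and 11.5 CPM in MUT and 14.9 to 39.5 CPM (median 17.3) in controls, with no call.

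Sesn1, a stress gene that dampens mTORC1, was at 15.3, 9.92, 16.6 and 7.18 CPM in E3.5 MUT embryos and 11.8 to 31.1 CPM (median 17.7) in controls. At E4.5 it was at 47.3 and 80.1 CPM in MUT, 15.1 to 35.2 CPM (median 24.7) in EPI and 3.58 to 32.1 CPM (median 11.3) in PrE. MUT embryos thus overlapped the controls at E3.5 and stood above both lineages at E4.5, with no call in a single comparison. Of the other targets for arrest, repair and stress, Tigar (log2 0.17 at E3.5), Plk3 (-0.38), Ccng1 (-0.60), Zmat3 (-0.58), Rrm2b (-0.79) and Trp53inp1 (1.36) were not called in any MUT comparison. At E4.5 both MUT embryos were above all EPI sums in Ccng1 (79.3 and 47.0 CPM, log2 2.18, edgeR adjusted p = 0.161) and in Plk3 (120 and 287 CPM, log2 1.38, edgeR adjusted p = 0.225), while each overlapped PrE. Phlda3 had counts in 1 of 29 E3.5 MUT cells and 8 of 19 E4.5 MUT cells and was not called at E4.5. Over all 15 members of this group, 14 were tested at E3.5, of which 2 were higher, 1 was lower and 11 were not called (21.4% called, beside 6.18% of all genes). At E4.5 all 15 were tested, with 1 higher against EPI and 1 lower against PrE (6.67% in each, beside 4.92% and 3.81% of all genes). Their median log2 fold change was -0.08 at E3.5, 1.31 against EPI and 0.95 against PrE, with the same MUT embryos in the last 2.

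Of the 4 genes of the death receptor arm, Tnfrsf10b was found in many cells and the others in few or none. No Fas count was found in 172 cells, which allows a share of cells with a count of up to 1.74% if cells are taken as independent, although they came from 19 embryos in 5 groups. Casp8, the initiator caspase of that arm, had a count in 0 of 58 control and 0 of 29 MUT cells at E3.5, and in 0 of 19 MUT, 5 of 37 EPI and 7 of 29 PrE cells at E4.5. By the same limit of 3 cells, 0 of 19 allows a share of up to 15.8%, which covers counting error only. Some EPI and PrE sums also had no Casp8 count, and the shares per embryo gave an exact permutation p of 0.321 against either lineage. Tnfrsf10b, the TRAIL receptor gene, had counts in 13 of 29 E3.5 MUT and 41 of 58 control cells with a log2 fold change of -0.01. Eda2r was found in 8 cells in all. Of this arm only Tnfrsf10b was tested at E3.5, and 3 genes, without Fas, were tested in each E4.5 comparison. None of those tested was called, beside 6.18% of all genes at E3.5, 4.92% against EPI and 3.81% against PrE.

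Bax, whose product opens the mitochondrial outer membrane, was one of the steadiest members at E3.5. It had 87, 115, 106 and 107 CPM in MUT embryos and 88 to 114 CPM (median 97.8) in controls, which overlapped closely. The edgeR log2 fold change was 0.05 (approximate 95% interval -0.22 to 0.32, adjusted p = 0.888), so a change of Bax by 1 log2 unit lay outside the interval. At E4.5 it had 168 and 89.9 CPM in MUT, 132 to 297 CPM (median 214) in EPI and 54.1 to 96.6 CPM (median 74.1) in PrE. MUT values overlapped both lineages and were not called (log2 -0.77 against EPI and 0.81 against PrE), while EPI was above PrE by 1.55 (SE 0.24, edgeR adjusted p = 0.000689). Bak1, the second effector, was at 0, 0.305, 0.342 and 0 CPM in E3.5 MUT, at most 0.564 CPM in controls, 0.291 and 0 CPM in E4.5 MUT and at most 1.43 CPM in EPI and 3.56 CPM in PrE. The whole of Bak1 lies within the antisense gene Ggnbp1, so these few counts are uncertain.

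Among the BH3-only genes, Pmaip1 rose at E3.5 and Bbc3 did not pass the test. Pmaip1 encodes NOXA, which binds MCL1, and had 7.81, 54.4, 61.1 and 70.7 CPM in MUT embryos and 2.7 to 19.2 CPM (median 10.3) in controls. Embryo 10 lay within the control range and the other 3 were above all controls. The edgeR log2 fold change was 2.19 (SE 0.52, adjusted p = 0.0267), and the call was lost without embryo 14, 16, 17 or 19 (edgeR adjusted p = 0.0555, 0.0523, 0.0686 and 0.0686). It was also lost when the cells of an embryo weighed equally (log2 1.12, limma adjusted p = 0.208). E4.5 levels were 31.7 and 95.4 CPM in MUT, 17.1 to 43.6 CPM (median 23.4) in EPI and 17.7 to 88.3 CPM (median 31.8) in PrE. These overlapped and were not called. Counts were found in 17 of 29 E3.5 MUT and 22 of 58 control cells, and in 6 of 19 E4.5 MUT cells.

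Bbc3 encodes PUMA, the BH3-only protein most tied to p53. It had 0, 0.763, 2.39 and 5.07 CPM in E3.5 MUT embryos and 0.337 to 2.45 CPM (median 1.1) in controls, with overlap (log2 0.54, approximate 95% interval -1.20 to 2.28, edgeR adjusted p = 0.793). At E4.5 it had 17.3 and 1.05 CPM in MUT, 0.319 to 14 CPM (median 3.36) in EPI and 0 to 2.85 CPM (median 1.34) in PrE, again with overlap. A single MUT cell, at 109 CPM, held 74.8% of the 309 Bbc3 counts of the E4.5 MUT cells. A count was present in 9 of 29 and 19 of 58 cells at E3.5 and in 3 of 19, 9 of 37 and 4 of 29 MUT, EPI and PrE cells at E4.5. The E3.5 interval covered changes of more than 1 log2 unit in either direction.

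Bad, a BH3-only gene regulated by survival kinases, had 22.9, 44.2, 48.5 and 42.1 CPM in E3.5 MUT embryos and 30.5 to 45 CPM (median 33.2) in controls. At E4.5 it had 38.3 and 77.4 CPM in MUT, 6.06 to 25.4 CPM (median 10.8) in EPI and 5.8 to 16.6 CPM (median 14) in PrE. Both E4.5 MUT embryos were above every EPI and PrE sum, but the differences were not called (log2 2.04 and 2.20, edgeR adjusted p = 0.103 and 0.086). Bid, Bmf and Bcl2l11 (BIM) were not called in any MUT comparison, and Bik was found in 3 of all cells. Of the 6 BH3-only genes tested at E3.5, 1 was higher and 5 were not called (16.7% called, beside 6.18% of all genes). At E4.5 none of 6 was called by edgeR in either comparison, beside 4.92% and 3.81% of all genes, with 2 against EPI and 1 against PrE at an unadjusted p under 0.05, which 2455 of 12953 and 2015 of 12246 of all genes also passed.

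Bcl2l1, which encodes the pro-survival protein BCL-xL, lies on chromosome 2 from 152780668 to 152831728. It had 19, 24.7, 23.6 and 17.9 CPM in E3.5 MUT embryos and 4.22 to 12.9 CPM (median 6.16) in controls, with all MUT embryos above all controls. The edgeR log2 fold change was 1.39 (SE 0.36, adjusted p = 0.0403). The call was lost without embryo 9, 10, 11, 12, 13, 14, 16, 17 or 19 (edgeR adjusted p from 0.0545 to 0.0942), with the log2 change between 1.29 and 1.46. At E4.5 it was at 76.6 and 50.6 CPM in MUT, 9.74 to 58.7 CPM (median 40.6) in EPI and 59.3 to 94.3 CPM (median 80.3) in PrE, and MUT overlapped both. Mcl1, a short-lived pro-survival gene product, had 249, 103, 97.7 and 201 CPM in E3.5 MUT embryos and 96.4 to 141 CPM (median 110.5) in controls. Embryos 10 and 19 were above all controls, the others were not, and the change was not called (log2 0.52, edgeR adjusted p = 0.25). At E4.5 Mcl1 had 83.8 and 49.6 CPM in MUT, 49.7 to 128 CPM (median 68.8) in EPI and 34.6 to 60 CPM (median 43.3) in PrE, with no call. Bcl2 itself had counts in 2 of all cells.

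A ratio of pro-survival to effector RNA was taken per kilobase of exon. It is the summed level of Bcl2, Bcl2l1 and Mcl1 divided by that of Bax and Bak1 only. The ratio was 1.39, 0.483, 0.502 and 0.925 in the E3.5 MUT embryos and 0.404 to 0.684 (median 0.569) in the controls. Embryos 10 and 19 were above all controls and the other 2 were among them. The mean was 0.826 ± 0.430 (SD, n = 4) against 0.557 ± 0.0936 (SD, n = 7), and without embryo 10 it was 0.637. At E4.5 the ratio was 0.385 and 0.448 in MUT, 0.246 ± 0.114 in EPI (SD, n = 6, range 0.122 to 0.461) and 0.659 ± 0.165 in PrE (SD, n = 6, range 0.486 to 0.927). Both MUT embryos therefore lay below every PrE sum and within the EPI range, above 5 of the 6 EPI sums. Without division by length, MUT embryo 8 had a ratio of 1.11, just above the highest EPI sum at 1.09. No test was made on this ratio, because it is built from chosen members.

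**Figure D3:**
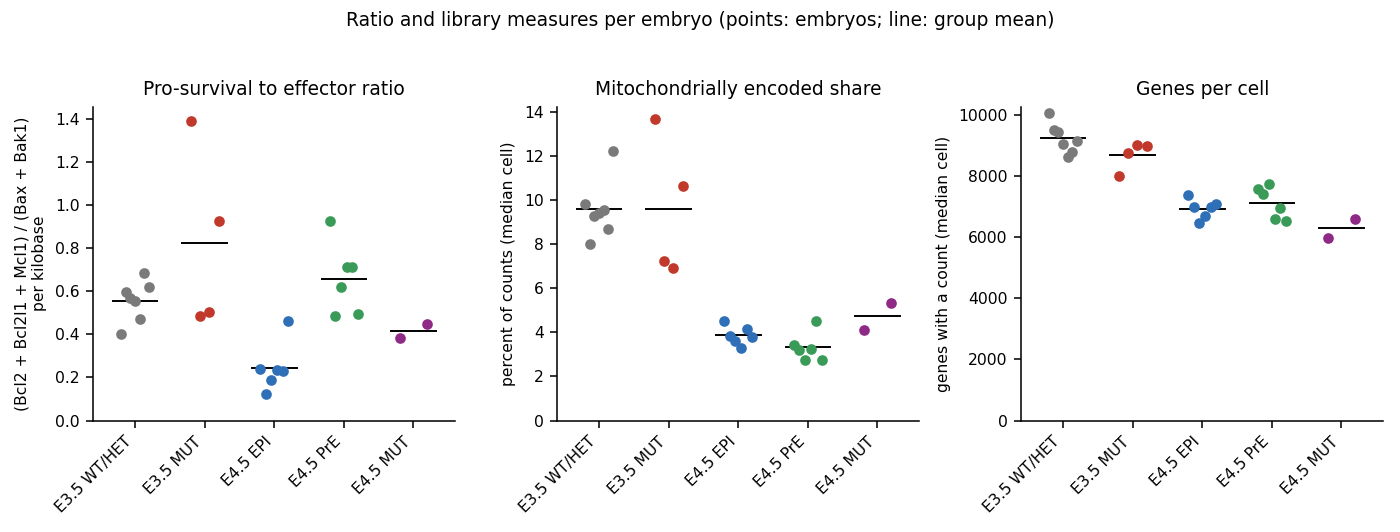
Ratio of pro-survival to effector RNA per kilobase (left), percent of counts from mitochondrially encoded genes (middle) and genes with a count in the median cell (right), with a point for each embryo and a line at the group mean. The ratio of E3.5 MUT embryos runs from 0.483 to 1.39, and the mitochondrial share of E4.5 MUT embryos, 4.12% and 5.35%, stands against 3.28% to 4.54% in EPI and 2.74% to 4.53% in PrE.

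Downstream of the membrane, Cycs (cytochrome c; chromosome 6, 50562563 to 50566538) was lower in E4.5 MUT embryos. It had 48.4 and 80.8 CPM in MUT, 103 to 285 CPM (median 220) in EPI and 156 to 239 CPM (median 211) in PrE. Both MUT embryos were below all 12 sums of the lineages. The edgeR log2 fold change was -1.70 (SE 0.40, adjusted p = 0.0431) against EPI and -1.68 (SE 0.30, adjusted p = 0.0155) against PrE. Without embryo 3 neither was called (log2 -1.38 and -1.30, edgeR adjusted p = 0.250 and 0.189), and against EPI the call was also lost without embryo 2, 4, 5, 6, 7 or 8 (edgeR adjusted p from 0.0749 to 0.100). Cycs also serves the respiratory chain, so its RNA is not specific to apoptosis. At E3.5 it had 85.8, 103, 71.5 and 107 CPM in MUT embryos and 84.9 to 124 CPM (median 101) in controls, with no call. Cycs has processed pseudogenes, and read pairs with more than one alignment were not counted.

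Casp9, the initiator caspase of the apoptosome, had 16.6, 16.8, 12.5 and 6.76 CPM in E3.5 MUT embryos and 10 to 27.5 CPM (median 14.3) in controls. It had 16.2 and 13.6 CPM in E4.5 MUT embryos, 1.12 to 24 CPM (median 12) in EPI and 9.77 to 30.8 CPM (median 24) in PrE. The groups overlapped throughout, and the log2 fold changes of -0.32, 0.14 and -0.53 were not called. Apaf1, the scaffold of the apoptosome, was at 19, 34.4, 24.4 and 20 CPM in E3.5 MUT embryos and 7.97 to 14.7 CPM (median 14.3) in controls. These did not overlap, but the log2 fold change of 0.89 missed the threshold (edgeR adjusted p = 0.0724). At E4.5 Apaf1 had 54.0 and 7.89 CPM in MUT, 0 to 17.7 CPM in EPI and 0 to 12.9 CPM in PrE, with overlap and no call (edgeR adjusted p = 0.479 and 0.460). Xiap, the caspase inhibitor, and Diablo, its antagonist, were not called in any MUT comparison (log2 0.19 and 0.13 at E3.5).

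A stage by genotype term asked whether the MUT difference itself changed between E3.5 and E4.5, with each control embryo's EPI and PrE cells joined in 1 sum. Of 37 members tested, 5 were called (13.5%), beside 5.46% of 16410 genes (2.71% upward and 2.75% downward). Cycs (log2 -1.59, SE 0.32, edgeR adjusted p = 0.00655), Aen (log2 -2.62, SE 0.62, edgeR adjusted p = 0.0176) and Trp53 (log2 -1.39, SE 0.35, edgeR adjusted p = 0.0262) had a more negative MUT-minus-control difference at E4.5 than at E3.5. Bad (log2 1.81, SE 0.47, edgeR adjusted p = 0.0299) and Sesn1 (log2 2.27, SE 0.63, edgeR adjusted p = 0.0392) had a more positive one. The term takes in the levels of the controls as well as those of MUT embryos: mean Cycs was 91.9 and 64.6 CPM in MUT at E3.5 and E4.5, and 104 CPM in E3.5 controls, 206 CPM in EPI and 209 CPM in PrE. For Trp53 the joined E4.5 controls mix EPI, with a mean of 425 CPM, and PrE, with 106 CPM. Its log2 fold change was -1.35 at E3.5, -3.32 against EPI and -1.27 against PrE. Against PrE alone the Trp53 difference was thus not more negative than at E3.5. Without MUT embryo 3 the calls of Cycs, Aen and Trp53 were lost (edgeR adjusted p = 0.0756, 0.138 and 0.188), and without MUT embryo 8 those of Bad and Sesn1 (edgeR adjusted p = 0.258 and 0.195). Sesn1 was also lost without embryo 3, 7, 11, 12, 15, 16 or 19 (edgeR adjusted p from 0.0542 to 0.0720). The stages were on separate plates, but MUT and controls of a stage shared theirs.

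The 2 lineages of the control embryos differed in 3 of 33 members tested (9.09%), beside 9.81% of 9762 genes (4.61% higher in EPI and 5.2% lower). Trp53 and Bax were higher in EPI and Btg1 was higher in PrE, as given above. The EPI and PrE cells came from the same 6 embryos and were told apart by their transcriptomes, so this comparison describes the assigned classes and its p-values are not independent of that choice. On Trp53 and Btg1 both E4.5 MUT embryos lay beyond the PrE sums, on the side away from EPI. On Bax they were split, with 89.9 CPM in embryo 8 inside the PrE range and 168 CPM in embryo 3 inside the EPI range.

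**Figure D4:**
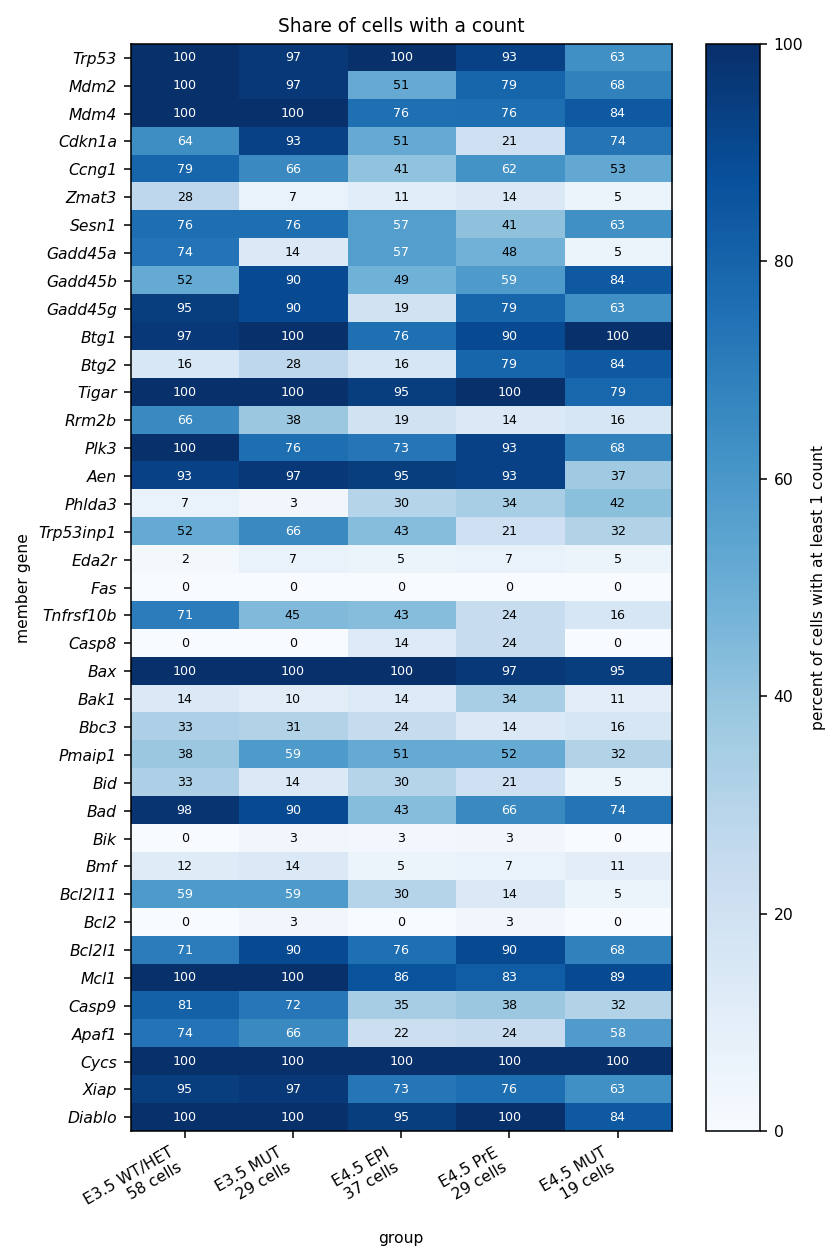
Percent of cells with at least 1 count of each member (colour and printed value) in E3.5 WT/HET (58 cells), E3.5 MUT (29), E4.5 EPI (37), E4.5 PrE (29) and E4.5 MUT (19). Gadd45a is at 74.1% of E3.5 control and 13.8% of E3.5 MUT cells, Gadd45b at 51.7% and 89.7%, and Fas is at 0 in all groups.

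The share of cells with a count was taken in each embryo and compared between groups by an exact two-sided permutation test. None of the 32, 36 and 36 members tested was called after adjustment over all genes, and 0% of all genes were, with 6, 4 and 2 members at an unadjusted p under 0.05. Over all genes this unadjusted threshold was passed by 1709 of 12075, 1678 of 12953 and 1543 of 12246. At E3.5 the smallest p that 330 splits allow, 0.00303, was reached by Gadd45a (mean share 10.0% in MUT and 73.7% in controls, exact permutation adjusted p = 0.113) and Gadd45b (88.8% and 51.8%, the same adjusted p). At E4.5 the 28 splits allow no p below 0.0357, reached for Aen, Trp53, Btg2 and Apaf1 against EPI and for Aen and Tigar against PrE. Aen was in 40.3% of MUT cells on average, 95.2% of EPI and 93.3% of PrE cells. The lower sums of Gadd45a at E3.5 and of Aen at E4.5 thus went with lower shares of cells, which themselves did not pass the adjusted test.

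Signs of RNA quality were set beside these values, since cells that die can lose cytoplasmic RNA. The mitochondrially encoded share of counts in the median cell was 6.93% to 13.7% over E3.5 MUT embryos and 8.03% to 12.2% over controls. The E4.5 MUT pair had 4.12% and 5.35%, where EPI sums spanned 3.28% to 4.54% and PrE sums 2.74% to 4.53%, so embryo 8 was above all of the lineage values. The share of reads without a gene was 4.6% and 4.29% in the E4.5 MUT pair, above the 3.72% to 4.14% of EPI and 2.86% to 3.44% of PrE. At E3.5 it was 5.20% to 7.34% in MUT, highest in embryo 10, and 4.76% to 5.82% in controls. Reads with several alignments were 40.97% to 44.9% in MUT embryos 10, 17 and 19 and 37.3% in embryo 12, beside 36.9% to 39.9% in controls. Genes with a count in the median cell numbered 7997 to 9018 in E3.5 MUT and 8605 to 10056 in controls, and 5977 and 6592 in E4.5 MUT against 6476 to 7370 in EPI and 6533 to 7724 in PrE. E3.5 MUT embryo 10 had the highest mitochondrial share and the fewest genes of its stage. It was within the control range for Pmaip1 and had the highest Mcl1 and ratio values. The part of these measures in the members' values was not tested.

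Other genes of the 2 pathways were taken from lists of 14 p53 targets and 24 apoptosis genes that are not among the 39. At E3.5, 1 of 12 tested p53 targets was higher and none lower, beside 6.18% of all genes called. It was Pidd1 (log2 1.46, edgeR adjusted p = 0.0305), whose product forms a caspase-2 platform. Of 21 tested apoptosis genes 3 were higher and none lower, beside the same 6.18%, namely Casp6, an executioner caspase gene (log2 1.03, edgeR adjusted p = 0.00221), the hypoxia-responsive mitophagy gene Bnip3 (log2 1.61, edgeR adjusted p = 0.0171) and Bok (log2 1.52, edgeR adjusted p = 0.0383). At E4.5, 1 of 13 p53 targets was higher against EPI and 1 of 13 against PrE, in each case Perp, beside 4.92% and 3.81% of all genes called. Perp encodes a desmosomal membrane protein and had 46.6 and 124 CPM in MUT embryos, at most 0.431 CPM in EPI and 0 counts in PrE (edgeR adjusted p = 0.00493 and 0.0146).

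Of 22 apoptosis genes tested against EPI 2 were higher and 1 was lower, and of 23 against PrE 3 were higher, beside the same 4.92% and 3.81%. Casp6 had 162 and 203 CPM in MUT, 13.5 to 61.2 CPM in EPI and 18.2 to 65.1 CPM in PrE (edgeR adjusted p = 0.0351 and 0.018). Bnip3 had 441 and 686 CPM in MUT, 21.8 to 91.3 CPM in EPI and 20.5 to 103 CPM in PrE (edgeR adjusted p = 0.00242 and 0.0066). For both genes every MUT embryo was above every sum of either lineage. Parp1, a DNA damage sensor and caspase substrate, was lower against EPI (log2 -1.56, edgeR adjusted p = 0.00355), and Bnip3l was higher against PrE (log2 2.23, edgeR adjusted p = 0.0359).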

How the data were processed

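Single-cell Smart-seq2 libraries were made by the authors from ICM cells. According to the study's methods and the submitters' processing notes, the authors aligned reads with STAR to GRCm38 (mm10) and counted them per gene with HTSeq against Ensembl release 87, and deposited raw, whole-number counts for each cell. The strand setting and counting mode were not given in the sources used here. Reads without a gene (4.72%), ambiguous between genes (8.65%) or with several alignments (32.3%) stayed out of totals. Gene symbols and coordinates came from GENCODE M21 for 49412 of 49671 identifiers.

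Counts were added over the cells of each embryo and lineage, and each comparison was fitted on its own groups with edgeR 4.0.16 (filterByExpr, TMM, quasi-likelihood F-test, prior count 2, R 4.3.3) without covariates. P-values were adjusted by Benjamini and Hochberg over all genes tested, and calls used an adjusted p of 0.05. Intervals are the log2 fold change with its SE under a normal approximation. They are narrower than the F-test implies for so few embryos. Shares of cells with at least 1 count were averaged per embryo and tested by exact two-sided permutation. The 39 members and the other gene lists were chosen with earlier results of these data known. Values per embryo are given for Trp53, Mdm2, Cdkn1a, Sesn1, Gadd45a, Gadd45b, Btg1, Aen, Bax, Bak1, Bbc3, Pmaip1, Bad, Bcl2l1, Mcl1, Casp9 and Cycs, and other members are given by ranges, counts and calls, except that Apaf1, Btg2 and a few named for their role were chosen after their values were seen. Of the other lists, at most the 3 called genes with the smallest adjusted p are named in a comparison. A further gene is not reported here.

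EPI and PrE sums came from the same 6 embryos, a pairing given, like all embryo numbers, by the study's table of cells matched on sample titles. The deviations of paired sums correlated at 0.0661, 0.0465, 0.00894, 0.0424, 0.0142 and 0.0473, and 5 of the 6 correlated best with their own embryo. Alternatives were DESeq2 1.42.0, its size factors in edgeR, no filter, a filter at 10 CPM, WT controls only, cells weighted equally with limma 3.58.1, the embryo as a block, shallow cells (9) or mitochondrially encoded genes left out, other definitions of a detected gene, thinned cells and each embryo left out. The edgeR script was tested on simulated counts with known changes. No deposited columns of unmapped samples were present, and no protein sequences were used here.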

Additional observations from a re-analysis of the deposited data

Results flagged for a closer look

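Of 72 groups of 4 to 7 embryo values that were examined, 6 had an embryo far from the others, and chance flags about 1 in 20 groups. Among E3.5 MUT embryos, number 12 had 1.30 CPM of Gadd45a (next 0.0855 CPM) and 336 CPM of Btg1 (next 223 CPM). PrE of embryo 1 had 77.6 CPM of Gadd45b (next 25.7 CPM) and only 156 CPM of Cycs (next 208 CPM). Control embryo 13 of E3.5 had 44.97 CPM of Bad (next 35.9 CPM), and EPI of embryo 7 had a pro-survival to effector ratio of 0.461 (next 0.238).

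The MUT difference changed between the stages for 5 members by the edgeR stage by genotype term, on the log2 scale by -2.62 for Aen, -1.59 for Cycs, -1.39 for Trp53, 1.81 for Bad and 2.27 for Sesn1. Each of these calls was lost without 1 of the 2 E4.5 MUT embryos, as given with the values above. For Trp53 the term depends on the EPI cells in the joined controls, since its log2 fold change against PrE alone was -1.27, beside -1.35 at E3.5.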

How the results depend on the processing

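The percentages in parentheses after a count are the share of all genes called in the same fit. No called member reversed its direction under any alternative. Of 19 calls over the 5 comparisons, 7 held under every alternative other than leaving out embryos, 7 with each embryo left out, and 6 throughout. At E3.5 the 6 members called (6.18%) became 2, Btg1 and Trp53, with WT controls only (3.75%). Pmaip1 was lost with cells weighted equally (log2 1.12, limma adjusted p = 0.208), and Bcl2l1 without a filter (edgeR adjusted p = 0.0752). Against EPI the 3 called (4.92%) became 6 with DESeq2 (15.2%), 6 with cells weighted equally (11.4%) and 1 with WT controls only (0.412%). Trp53 was lost there (edgeR adjusted p = 0.0605). Against PrE the 2 called (3.81%) became 4 with DESeq2 (11.2%) and 0 with WT controls only (0.253%), where 2 WT embryos remained and 4 of 32 members and 18.4% of all genes had an unadjusted edgeR p under 0.05. Cdkn1a was called against PrE with no filter, with a filter at 10 CPM and with cells weighted equally. For EPI against PrE the 3 called (9.81%) became 7 with DESeq2 (15.2%) and 5 with cells weighted equally (18.7%). With the embryo as a block, which pairs EPI and PrE, 3 members and the same genes were called (8.6%). The 5 calls of the stage by genotype term (5.46%) became 3 without a filter (2.86%), where Bad and Sesn1 were lost (edgeR adjusted p = 0.0552 and 0.0616), and 1 with WT controls only (3.11%). Sesn1 was also lost with cells weighted equally (limma adjusted p = 0.0704). The causes were not tested, though WT controls alone leave fewer embryos.

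With each embryo left out, the calls ranged from 2 to 6 at E3.5, 2 to 4 against EPI, 0 to 3 against PrE, 3 to 4 for EPI against PrE and 1 to 6 for the interaction. The share of all genes called ranged from 3.89% to 7.03%, 1.51% to 6.06%, 1.19% to 4.41%, 6.64% to 9.22% and 3.01% to 6.24% in the same fits. The 0 and the 1 came without MUT embryo 3, where 1.19% and 3.01% of all genes were called, and 7 of 37 members and 14.9% of all genes had an unadjusted edgeR p under 0.05 beside that 0. Where 1 MUT embryo remained it was assumed to vary like the controls. Leaving out E3.5 MUT embryos, an alternative chosen after seeing the data, moved their mean ratio between 0.637 and 0.940. Without division by length the mean ratios were 1.85, 1.23, 0.583, 1.70 and 1.03 in E3.5 MUT, E3.5 WT/HET, EPI, PrE and E4.5 MUT. No share of cells was called with 5 counts or 10 CPM as the limit, or in cells thinned to 661516 counts (80 of 87 cells at E3.5) and 832934 counts (83 of 85 at E4.5). The smallest adjusted p of any gene at E4.5 was 0.270 to 0.296 over these and the main setting, so the exact permutation test of 28 splits says nothing of stability there. With 2 MUT embryos at E4.5, no uncalled member was bounded within 1 log2 unit.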

Other observations

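Between the control lineages, 2 of 12 other p53 targets (16.7%) and 2 of 19 other apoptosis genes (10.5%) were called, beside 9.81% of all genes. Dram1, a p53-induced lysosomal gene, was lower in EPI than in PrE (log2 -3.72), and Ei24 was higher (log2 2.90), both past an edgeR adjusted p of 0.05. Parp1 and Bnip3l were higher in EPI (log2 1.49 and 1.59). In E3.5 embryos Perp was at 14 to 35.9 CPM in MUT and 16 to 63.5 CPM in controls, so the 2 groups overlapped there, while at E4.5 its level was near 0 in both control lineages.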
